A study of Mus musculus with 2 samples.

Results

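The mouse genome carries 6 conventional actin genes, and all 6 were measured in embryonic heart: the striated muscle actins Actc1 and Acta1, the smooth muscle actins Acta2 and Actg2, and the cytoplasmic actins Actb and Actg1. They were taken by gene symbol from among 43346 rows with Ensembl gene identifiers, and 26 of their transcripts were in the tables. Total RNA was sequenced from 2 pools of whole hearts of B6NCrl embryos of both sexes at embryonic day 16.5. The libraries are replicates 1 and 2 of a single group, for which the labels name no treatment. For both libraries the labels give an input of 10 ng and a size above 200 nt. Replicate 2 pooled 41 embryos, and the number pooled for replicate 1 is not given in the sources used here. Both pools carry the same donor identifier but separate biosamples, and they were treated as separate pools.

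Actins are nearly identical proteins that polymerise into filaments. In heart and skeletal muscle the filaments of the sarcomere are built from cardiac actin, encoded by Actc1, and skeletal muscle actin, encoded by Acta1. Acta2 and Actg2 encode the actins of vascular and of visceral smooth muscle, and Acta2 is also made by early heart muscle cells and myofibroblasts, while Actb and Actg1 encode the cytoskeletal actins of nearly every cell. The isoforms differ most at their amino-terminal end, and many actin genes are driven by serum response factor, which binds the CArG box.

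The libraries held 37160624 estimated counts in replicate 1 and 40360242 in replicate 2, of which spike-in RNAs took 1.62% in replicate 1 and 3.41% in replicate 2. All 10 heart muscle markers examined stood at a level of at least 1 TPM in both libraries, where TPM is transcript abundance corrected for transcript length and library size. Markers of other tissues were present too. The summed level of 8 lung epithelium markers was 957 TPM in replicate 1 and 130 TPM in replicate 2, higher in replicate 1 for 8 of 8, and that of 7 thymocyte markers was 92.8 TPM in replicate 1 and 245 TPM in replicate 2, higher in replicate 2 for 7 of 7. Each pool gave a single library, so a difference between pools and one between library preparations cannot be told apart.

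The sequences at the start of the coding regions show how alike and how distinct the genes are. The first 30 coding bases of the main transcript of each gene are given 5′ to 3′ on the minus strand of GRCm38, from GENCODE M21. Capitals mark bases that differ from the base of Actc1 they align with. The alignment of the coding regions leaves a gap of 1 codon in Actg2 and of 2 codons in Actb and Actg1 near the start.
Actc1: atgtgtgacgacgaggagaccaccgctttg
Acta1: atgtgCgacgaAgaCgagaccaccgctCtT
Acta2: atgtgtgaAgaGgaAgaCaGcacAgcCCtg
Actg2: atgtgtgaAgaAgagaccaccgcCCtTgtg
Actb: atggaTgaCgaTaTcGcTgcGCtggtCGTC
Actg1: atggaAgaAgaAaTcGccgcACtCgtCATt
In this window 5 bases of Acta1, 8 of Acta2 and 5 of Actg2 differed from the aligned bases of Actc1, against 12 of Actb and 11 of Actg1. The Actc1 window lies at chr2:114052002-114052031 and that of Actb at chr5:142905657-142905686.

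The coding regions, stop codon included, were 1134 nt in Actc1, Acta1 and Acta2, 1131 nt in Actg2 and 1128 nt in Actb and Actg1. Among the 15 pairs of genes, Actb and Actg1 were the most alike, with 88.7% of 1128 aligned bases identical. Actc1 and Acta1 shared 86.2% of 1134 bases. The lowest identity was 81.9%, between Actc1 and Actg1 and between Acta2 and Actg1. At the third position of the codons the share of G and C was highest in Acta1, at 77.2%, and lowest in Actc1, at 61.5%.

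**Figure D1:**
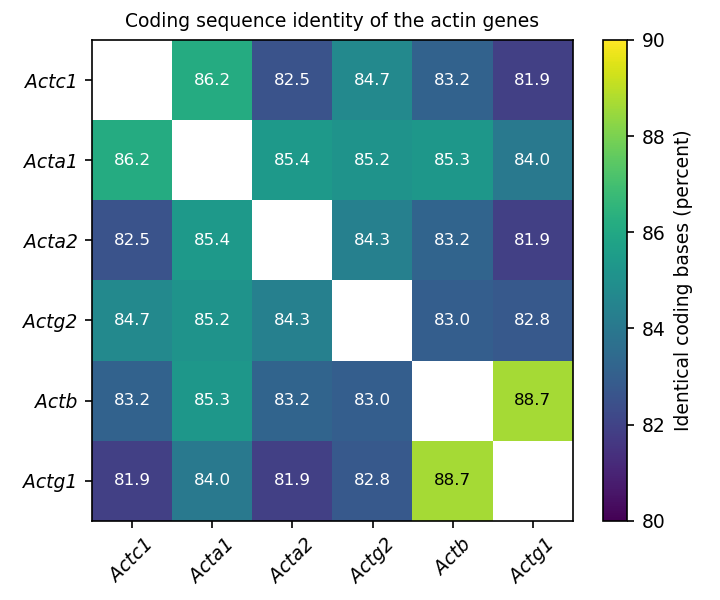
Percent of identical bases between the aligned coding regions of each pair of actin genes, with both axes listing the 6 genes. Actb and Actg1 form the most alike pair at 88.7%, and every other pair lies between 81.9% and 86.2%.

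No window of 100 bases, the read length that the tables' effective lengths imply, was shared between the main transcripts of any 2 of the actin genes.

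The exon structures fell into 3 pairs that matched the roles of the genes. The main transcripts of Actc1 and Acta1 each had 7 exons, and their exons 3 to 6 had the same lengths of 325, 162, 192 and 182 nt. Those of Acta2 and Actg2 each had 9 exons, with exons 3 to 8 of 129, 111, 85, 162, 192 and 182 nt in both. Those of Actb and Actg1 each had 6 exons, with exons 2 to 5 of 129, 240, 439 and 182 nt in both. The exon of 182 nt was the only length shared by all 6 genes. All 6 lie on the minus strand, each on a chromosome of its own.

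Actc1 was by far the most abundant actin transcript, Actb, Acta2 and Actg1 formed a middle tier, and Acta1 and Actg2 were lower. In the order of mean level, Actc1 stood at 12435 ± 301 TPM, Actb at 2038 ± 326, Acta2 at 1095 ± 137, Actg1 at 944 ± 59.3, Acta1 at 180 ± 23.3 and Actg2 at 23.3 ± 5.77 TPM (SD, n = 2). The order was the same in both libraries: all 15 pairs kept their direction, and the authors' credibility intervals of TPM did not overlap in either library for 15 of 15 pairs. TPM corrects for transcript length, so these levels can be compared between genes, given the annotated lengths. The authors' quantification took Acta2-201 as 1781 nt and Acta1-201 as 1433 nt, where GENCODE M21 gives 2035 nt and 1446 nt. What the longer forms would do to the levels was not tested.

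**Figure D2:**
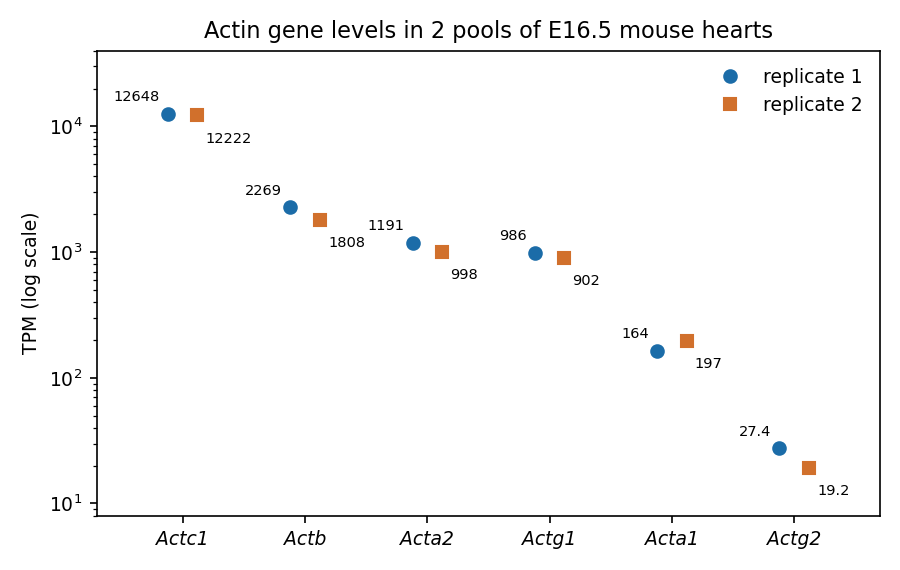
Level of each actin gene in TPM, on a log axis, with 1 point per library. The genes run in order of mean level, and the order is the same in both libraries, with Actc1 at a mean of 12435 TPM and Actg2 at 23.3 TPM.

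Neighbours in that order were separated by very different steps. On the log2 scale of TPM + 0.1, the ratio of Actc1 over Actb was 2.62 ± 0.20, which is 6.14-fold. The ratio of Actb over Acta2 was 0.89 ± 0.05, or 1.86-fold. The closest neighbours were Acta2 and Actg1, with log2 ratios of 0.27 in replicate 1 and 0.15 in replicate 2, a mean of 0.21 ± 0.09 or 1.16-fold. That step was the only one among the 15 pairs near the spread between libraries, at 2.33 times its SD. Actg1 stood above Acta1 by 2.39 ± 0.28, or 5.26-fold, and Acta1 above Actg2 by 2.96 ± 0.55, or 7.78-fold. From the top of the order to its bottom, Actc1 exceeded Actg2 539-fold.

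Together the 6 genes gave 17285 TPM in replicate 1 and 16147 TPM in replicate 2, which is 1.76% ± 0.04 of the TPM on all Ensembl genes (SD, n = 2). Actc1 supplied 73.2% of the actin TPM in replicate 1 and 75.7% in replicate 2. Actb supplied 12.2% ± 1.36, Acta2 6.54% ± 0.50, Actg1 5.65% ± 0.083, Acta1 1.08% ± 0.19 and Actg2 0.139% ± 0.028. The 4 muscle actins made up 82.2% ± 1.45 of the total and the cytoplasmic pair 17.8% ± 1.45. These are bulk samples of whole hearts, in which fewer cells of a type and less RNA per cell cannot be told apart.

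**Figure D3:**
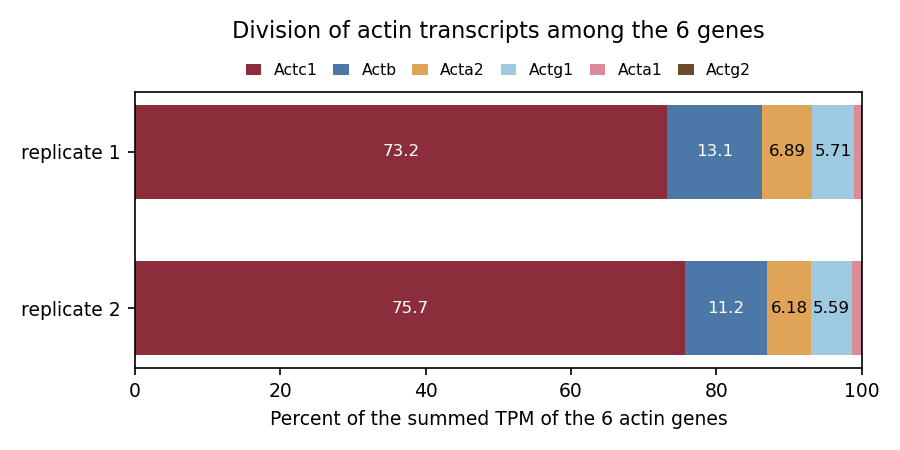
Share of each actin gene in the summed TPM of the 6 genes, as percent, with 1 stacked bar per library. Actc1 fills 73.2% of the bar for replicate 1 and 75.7% of that for replicate 2, Acta1 is a thin strip at the right, and Actg2 is too thin to be seen.

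Among the striated muscle actins, Actc1 (ENSMUSG00000068614.7, chr2:114047282-114053548) had 12648 TPM in replicate 1 and 12222 TPM in replicate 2, from 464045 and 497925 estimated counts. It ranked number 4 and number 3 among nuclear protein-coding genes in those libraries. Its level was nearly the same in both pools, and it held 1.31% of the TPM on genes in each. The genes next to it in mean level were globin genes, with Hba-a1 above at 12763 ± 994 TPM and Hbb-bt below at 10321 ± 1118 TPM. The authors' credibility interval was 12344 to 12418 TPM in replicate 1 and 11954 to 12023 TPM in replicate 2, below the point value in both cases. The interval surrounds a posterior mean, which the tables give separately as 12380 TPM in replicate 1 and 11988 TPM in replicate 2.

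Nearly all Actc1 RNA was assigned to Actc1-201, with 99.95% of the gene's TPM in replicate 1 and 99.97% in replicate 2. The remainder went to Actc1-202, an annotated transcript of 303 nt with 34.3 estimated counts in replicate 1 and 19.0 in replicate 2. On the opposite strand, A530058N18Rik spans the whole of Actc1 and had 1.14 TPM in replicate 1 and 2.08 TPM in replicate 2. Whether reads were counted by strand is not stated.

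Acta1 (ENSMUSG00000031972.4, chr8:123891769-123894751), the actin of skeletal muscle, had 164 TPM in replicate 1 and 197 TPM in replicate 2, from 5829 and 7776 estimated counts. In TPM it was higher in replicate 2, the only actin gene of which that was so. It made up 1.28% of the striated muscle actin TPM in replicate 1 and 1.58% in replicate 2, and Actc1 the rest. Its ranks were 801 in replicate 1 and 629 in replicate 2, and the genes next to it in mean level were Ostc at 180 ± 2.36 TPM and Cisd1 at 180 ± 3.95 TPM. The tables hold a single Acta1 transcript, Acta1-201.

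Markers of fast skeletal muscle were also higher in replicate 2. Of 16 such markers, 12 were higher in replicate 2 and 3 in replicate 1, and Myh4, an adult fast myosin, was at 0 in both. The list summed to 1895 TPM in replicate 1 and 2045 TPM in replicate 2, nearly all of it Ckm, a creatine kinase that heart also makes. Without Ckm the sums were 46.1 TPM in replicate 1 and 107 TPM in replicate 2, with 11 of 15 higher in replicate 2. Their part in the Acta1 difference was not tested. The gene Gm20388 runs across Acta1 on the opposite strand, with 682 estimated counts in replicate 1 and 427 in replicate 2.

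Among the smooth muscle actins, Acta2 (ENSMUSG00000035783.8, chr19:34241090-34255590) had 1191 TPM in replicate 1 and 998 TPM in replicate 2, from 53523 and 49787 estimated counts. Its level was higher in replicate 1. It ranked 72 in replicate 1 and 83 in replicate 2, between Gnas at 1110 ± 140 TPM and Mdh2 at 1072 ± 34.4 TPM. Its single transcript in the tables is Acta2-201. Acta2 stood 6.08-fold above Acta1 and was the second most abundant of the muscle actins.

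Actg2 (ENSMUSG00000059430.10, chr6:83512905-83536265), the actin of visceral smooth muscle, had 27.4 TPM in replicate 1 and 19.2 TPM in replicate 2, from 879 and 687 estimated counts. It formed 2.25% of the smooth muscle actin TPM in replicate 1 and 1.89% in replicate 2. Its ranks were 4507 and 5599, and its neighbours in level were Dnajc3 and Zfp511, at 23.3 ± 1.65 and 23.3 ± 1.71 TPM.

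In TPM all 10 smooth muscle markers were higher in replicate 1, as Acta2 and Actg2 were. The median log2 ratio of replicate 2 over replicate 1 was -0.05 over all 13038 genes tested between pools. Des at -0.04, Synpo2 at -0.05 and Lmod1 at -0.03 were no lower than that median. The 10 markers summed to 767 TPM in replicate 1 and 696 TPM in replicate 2. Without Des, which heart muscle also expresses, they summed to 375 TPM in replicate 1 and 315 TPM in replicate 2. Myh11, the defining smooth muscle myosin, was at 7.41 TPM in replicate 1 and 5.76 TPM in replicate 2, far below Acta2. The 6 pericyte markers summed to 90.6 TPM in replicate 1 and 79.6 TPM in replicate 2. The part of these cells, and of the lung epithelium markers that were also higher in replicate 1, in the Acta2 and Actg2 differences was not tested.

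The tables divided Actg2 between 2 transcripts of nearly equal share that differ in their first exon. Actg2-202, whose first exon of 33 nt lies at chr6:83527958-83527990, had 54.2% of the gene's TPM in replicate 1 and 48.6% in replicate 2. Actg2-201, whose first exon of 86 nt lies further upstream at chr6:83536180-83536265, had 45.8% in replicate 1 and 51.4% in replicate 2. Their credibility intervals overlapped in both libraries, so which of them was more abundant was not resolved. The other 3 Actg2 transcripts had 0 counts in both libraries. For Actg2-204, the longest of them, a count of 0 allows up to 0.148 TPM in replicate 1 and 0.133 TPM in replicate 2, counting error only. Its credibility intervals, which also cover assignment error, reached higher, to 1.20 TPM in replicate 1 and 1.10 TPM in replicate 2.

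Of the cytoplasmic actins, Actb (ENSMUSG00000029580.10, chr5:142903115-142906754) had 2269 TPM in replicate 1 and 1808 TPM in replicate 2, from 108009 and 95865 estimated counts. It was higher in replicate 1, and its SD of 326 TPM exceeded that of every other actin gene, Actc1 included. It ranked 26 in replicate 1 and 36 in replicate 2, and lay next to Atp5a1 at 2103 ± 37.3 TPM and Ubb at 2033 ± 51.6 TPM. The transcript Actb-201 held 96.3% of the gene's TPM in replicate 1 and 96.8% in replicate 2. Of the other 7, a processed transcript, Actb-206, held 2.15% in replicate 1 and 1.75% in replicate 2, and the 2 retained-intron transcripts together 1.50% in replicate 1 and 1.24% in replicate 2.

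Actg1 (ENSMUSG00000062825.11, chr11:120345690-120348542) had 986 TPM in replicate 1 and 902 TPM in replicate 2, from 44269 and 45347 estimated counts. It gave 30.3% of the cytoplasmic actin TPM in replicate 1 and 33.3% in replicate 2, and Actb exceeded it 2.15-fold, with a log2 ratio of 1.10 ± 0.14 (SD, n = 2). Its ranks were 90 and 97, between Sdhb at 947 ± 28.0 TPM and Cox6a2 at 938 ± 13.0 TPM.

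Actg1 had the most divided transcripts of the abundant actins. Actg1-202, the full-length form, held 50.8% of the gene's TPM in replicate 1 and 55.2% in replicate 2. Actg1-204 held 37.1% in replicate 1 and 33.6% in replicate 2. It lacks the first exon of 118 nt and begins at position 120348091 of chromosome 11, the first coding base of Actg1-202, so the 2 share all other exons but for a few end bases. Their intervals did not overlap in either library. Retained-intron transcripts, 3 in number, held 8.81% in replicate 1 and 8.37% in replicate 2, which is more than the 1.50% and 1.24% in Actb.

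A transcript annotated to nonsense-mediated decay, Actg1-206, held 2.80% of the Actg1 TPM in replicate 1 and 2.45% in replicate 2, at 27.6 and 22.1 TPM. It carries an additional exon of 45 nt, exon 4 of 7 at chr11:120347492-120347536, between the coding exons of 240 and 439 nt. The exon is shown up to the stop codon it brings into frame, in capitals, at chr11:120347501-120347536 on the minus strand.
Actg1-206 exon 4: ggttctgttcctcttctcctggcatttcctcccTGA

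**Figure D4:**
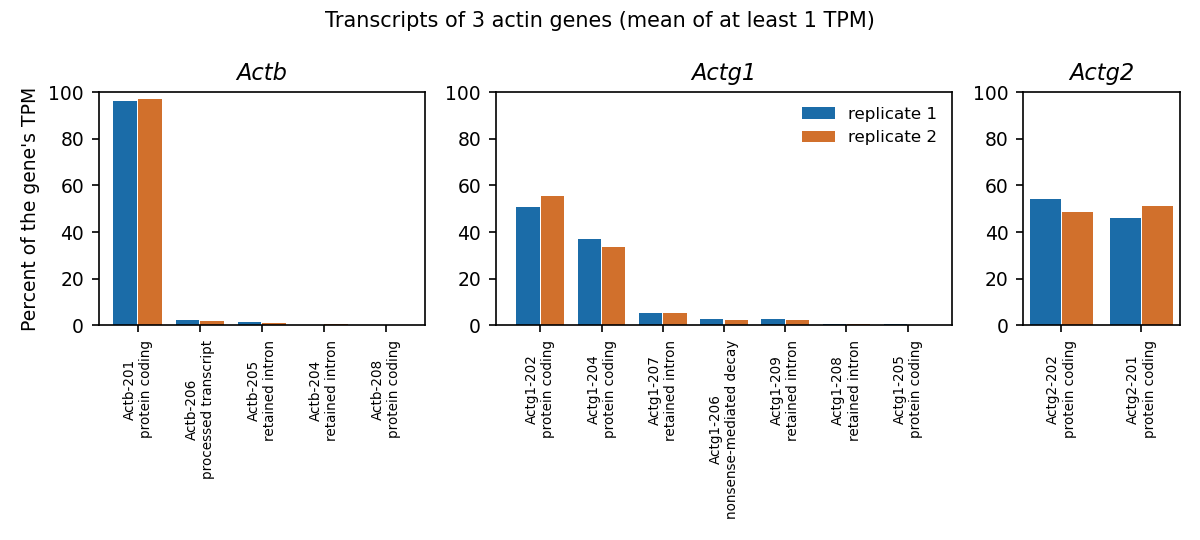
Percent of the gene's TPM on each transcript of Actb, Actg1 and Actg2 with a mean of at least 1 TPM, with bars for replicate 1 and replicate 2. Actb rests on 1 transcript at over 96% in both libraries, Actg1 divides mainly between 2 forms, and the order of the 2 Actg2 forms differs between libraries.

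None of the 6 genes differed more than 2-fold between the pools. Of 13038 genes with a mean of at least 100 estimated counts, 3.22% did so with separate credibility intervals, 2.43% higher in replicate 2 and 0.79% higher in replicate 1. The intervals were separate for 6 of 6 actin genes, against 31.3% of all genes tested. In TPM, 5 of the 6 were higher in replicate 1 and 1 in replicate 2. TPM includes spike-ins, and Ensembl genes held 967517 TPM in replicate 1 and 933462 TPM in replicate 2. As a share of that total, Actc1 was not lower in replicate 2, at 1.307% in replicate 1 and 1.309% in replicate 2. The intervals were compared in TPM only. Of the 4083 genes tested that had separate intervals, 2638 were higher in replicate 1 and 1445 in replicate 2. Those are 20.2% and 11.1% of all genes tested. The intervals cover counting and assignment error, not the spread between pools, and they are narrow at the high counts of these genes. The log2 ratio of replicate 2 over replicate 1 was -0.05 for Actc1, -0.33 for Actb, -0.26 for Acta2, -0.13 for Actg1, 0.26 for Acta1 and -0.51 for Actg2. The median over the 6 genes was -0.19, beside -0.05 over all genes tested.

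Set against 12974 protein-coding genes at a mean of 1 TPM or more, the Actc1 ratio was small: 81.0% of those genes had a log2 ratio at least as large in size. The same share was 54.0% for Actg1, 26.9% for Acta2, 25.5% for Acta1, 18.9% for Actb and 9.30% for Actg2. Actg2, the lowest of the 6 genes, thus had the widest gap between pools and Actc1, the highest, the narrowest. Between these ends the gap did not follow level: Actb, next below Actc1, had a wider gap than Acta2, Actg1 and Acta1. Heart muscle markers summed to 31085 TPM in replicate 1 and 27965 TPM in replicate 2, but did not move together: 6 of 10 were higher in replicate 1, and the other 4, namely Tnnt2, Tnni3, Myh6 and Pln, in replicate 2. Fibroblast markers summed to 2649 TPM in replicate 1 and 2271 TPM in replicate 2, with 5 of 7 higher in replicate 1 and 2, Postn and Dcn, in replicate 2. Endothelium markers summed to 329 TPM in replicate 1 and 305 TPM in replicate 2, with 4 of 5 higher in replicate 1. The part of any of these in the actin differences was not tested.

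**Figure D5:**
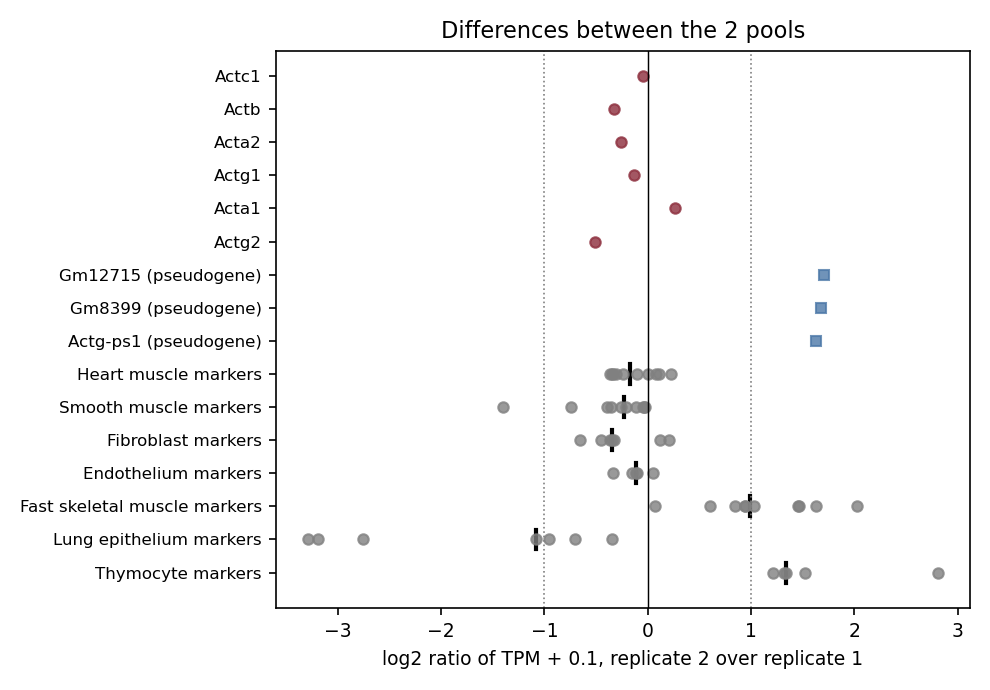
Log2 ratio of TPM + 0.1 in replicate 2 over replicate 1 for the 6 actin genes, for 3 Actg1 pseudogenes and for markers of 7 cell types with a mean of at least 1 TPM, where black ticks mark list medians and dotted lines a 2-fold difference. The actin genes lie between -0.51 and 0.26, while the pseudogenes lie between 1.63 and 1.71.

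Processed pseudogenes, copies of the cytoplasmic actin mRNAs set back into the genome, hold sequence that reads of an actin gene could share. Outside the 6 genes, 26 annotated genes had transcripts similar to an actin mRNA, and 24 of these were pseudogenes. The 13 with rows in the tables were nearest to Actg1 in 8 cases and to Actb in 5, and none was nearest to a muscle actin. Of the windows of 100 bases in the main transcript, 946 of 1853 in Actg1 also occurred in another annotated gene, against 20 of 1821 in Actb and 0 in each of Actc1, Acta1, Acta2 and Actg2.

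Together the 8 Actg1 pseudogenes had 11.8 TPM in replicate 1 and 38.5 TPM in replicate 2, small beside Actg1 itself. Gm12715 (chr4:103563402-103564529), identical to Actg1 at 99.6% of 1128 bases, had 8.44 TPM in replicate 1 and 27.8 TPM in replicate 2. Gm8399, on chromosome 13, had 1.96 TPM in replicate 1 and 6.49 TPM in replicate 2. Both were over 2-fold higher in replicate 2 with separate intervals. Over all pseudogenes tested, 48.7% of 300 were over 2-fold apart in either direction, against 2.08% of protein-coding genes, so such a gap is common among pseudogenes in these tables. The estimated counts of 3 copies had nearly the same ratio between pools, with values of replicate 2 over replicate 1 of 3.66 for Gm12715, 3.68 for Gm8399 and 3.67 for Actg-ps1. Actg-ps1 had under 100 counts and was not among the genes tested.

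The Actb copy with the highest level went the other way. Gm15725, an Actb copy inside Lrrc58 on chromosome 16, had 7.74 TPM in replicate 1 and was listed at 0 in replicate 2. Its 205 estimated counts in replicate 1 had a posterior SD of 35.0. Gm15725 was identical to Actb at 91.8% of 1133 aligned bases, and the 20 windows of 100 bases that Actb shared with it were also found in Lrrc58. How reads were divided among these 3 genes was not tested. With the pseudogene values added to the nearest actin gene, all 15 pairs kept their order in both libraries.

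The promoters of 4 of the 6 genes were in the RefSeq table for GRCm38.p6, which gives 250 bases before to 50 after each annotated start, namely Actc1, Acta1, Acta2 and Actg1. They are shown because the CArG box is the element that muscle and cytoplasmic actin genes are known to share. A box without mismatch was found in Actc1, Acta1 and Actg1, and boxes with 1 mismatch in Acta2, Actc1 and Acta1. Windows of 30 bases around 1 box of each gene, 5′ to 3′ on the minus strand, follow with that box in capitals.
Actc1: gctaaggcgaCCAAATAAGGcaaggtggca
Acta1: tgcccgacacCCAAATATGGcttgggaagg
Actg1: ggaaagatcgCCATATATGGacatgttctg
Acta2: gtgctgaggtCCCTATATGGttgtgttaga
The box begins 47 bases before the start in Actc1, 73 in Acta1, 90 in Actg1 and 84 in Acta2, where it holds 1 mismatch. These windows lie at chr2:114052903-114052932, chr8:123894829-123894858, chr11:120348566-120348595 and chr19:34255438-34255467, in the order of the lines above. The Acta2 window falls inside the first exon of Acta2-201 in GENCODE M21, which starts further upstream than the RefSeq transcript. The gene strand was searched, and for this palindromic box the other strand would give the same places. A box without mismatch stood in 535 of 32851 promoters of the same length, or 1.63%, and one with at most 1 mismatch in 21.1%. The letters TATAAA were found on the gene strand in Acta1, 7 bases before the start, and in Actc1, 33 bases after it, and in 8.32% of all promoters. All these distances are counted from the RefSeq start. That start lies upstream of the GENCODE M21 start of the main transcript in Acta1, and downstream of it in Actc1 and Actg1. The 4 genes with a window spanned levels of 12435 to 180 TPM, and the gene with the highest level and that with the lowest both held a box without mismatch.

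Genes of the actin pathway were read from lists. Serum response factor itself, Srf, was at 5.79 ± 0.49 TPM, and its cofactor Myocd, the myocardin of heart and smooth muscle, at 45.6 ± 6.10 TPM (SD, n = 2). The ubiquitous cofactors were lower, with Mrtfa at 11.5 ± 0.42 TPM and Mrtfb at 10.7 ± 0.18 TPM. Each library had all 12 measured genes of this list at 1 TPM or more, and their median was 16.7 TPM. The highest were the cardiac transcription factors Nkx2-5 at 104 ± 1.11 TPM and Gata4 at 74.8 ± 11.5 TPM, followed after Myocd by Mef2c at 34.7 ± 3.05 TPM and Elk3, an ETS factor that binds with serum response factor, at 20.4 ± 1.00 TPM.

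Newly made actin is folded by the chaperonin CCT, to which prefoldin hands it. The folding and maturation list had 19 of 19 measured genes at 1 TPM or more in each library, and a median of 121 TPM. The highest were subunits of CCT: Cct3 at 316 ± 5.18 TPM, Cct5 at 292 ± 2.51, Cct8 at 261 ± 20.9, Tcp1 at 261 ± 13.5 and Cct6a at 232 ± 3.08 TPM. Of the enzymes that modify actin, the histidine methyltransferase Setd3 stood at 61.8 ± 2.07 TPM and the N-terminal acetyltransferase Naa80 at 14.1 ± 2.85 TPM.

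Among other actin and actin-related genes, 10 of 20 measured stood at 1 TPM or more in both libraries. The highest were Actr3, a subunit of the filament-branching Arp2/3 complex, at 271 ± 12.3 TPM, and Actr1a and Actr1b, the filament of dynactin, at 103 ± 5.89 and 74.1 ± 9.13 TPM. Actl6a, a subunit of chromatin remodelling complexes, stood at 77.4 ± 0.22 TPM, and Actr2, the partner of Actr3, at 63.3 ± 4.43 TPM. Every one of these was above Actg2 and all but Actr3 below Acta1. Of the rest, 5 were listed at 0 in both libraries, Actrt1, Actrt2, Actbl2, Actl11 and Actl9, and Actl7a, Actl7b and Actrt3 were under 0.1 TPM in both.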

How the data were processed

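The authors quantified each library separately on build mm10 with annotation M4, per the labels and the notes deposited with the files; the aligner, the quantification tool and the strand setting are not stated there. The deposited tables give estimated counts (not whole, not normalized), TPM over all rows including spike-ins, FPKM (not used further), credibility intervals of unstated level, and, for transcripts, the percent of the gene's TPM. Effective length is length minus 99 bases. Names, exons and sequences come from GENCODE M21 (GRCm38, the same assembly); promoters come from RefSeq.

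Ratios used log2(TPM + 0.1). A gene was called apart between pools at a mean of at least 100 estimated counts, over 2-fold, with separate intervals. Scalings used edgeR 4.0.16 (TMM factors 0.995 and 1.00) and DESeq2 1.42.0, on counts rounded to whole numbers; coding regions were aligned with mafft 7.526 and actin-like genes found with blastn 2.17.0 (at least 80% identity over 300 nt). The 2-fold rule was tried on simulated counts that held counting error only, so that trial does not cover spread between pools or read assignment. No p-value is given, because 2 libraries of 1 group allow an exact sign-flip test no p below 0.5 (two-sided). Members and lists were chosen with earlier results of these data known. Named genes are the 6 actin genes, their transcripts, overlapping genes, pseudogenes at 1 TPM or more and nearest genes in level. Up to 5 highest members of each list and members under 0.1 TPM are named too. Srf, Mrtfa, Mrtfb, Setd3, Naa80, Myh11, Synpo2, Lmod1, Pln, Myh6 and Lrrc58 were added after their values were seen. Depth and intervals cover counting and assignment error only. Alternatives tried were posterior means, other length corrections, denominators, scalings, pseudocounts and leaving out each library.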

Additional observations from a re-analysis of the deposited data

How the results depend on the processing

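The order of the 6 genes and the direction of all 15 pairs held under posterior mean TPM, counts per kilobase, other pseudocounts, pseudogene TPM added and each library alone. Without length correction 9 of 15 pair ratios moved by more than the replicate SD, none changing direction; the Actc1 share of actin was then 70.0% in place of 74.4%, and the 6 genes' share of the total 1.82% in place of 1.76%. That total share was 1.67% over all rows with spike-ins and 2.09% over nuclear protein-coding genes. With each library alone the Actc1 share ran from 73.2% to 75.7% and the total share from 1.73% to 1.79%. TMM and DESeq2 size factors each moved 4 of the 6 ratios between pools, and no sign changed under either. Actc1 came to -0.00 with TMM and -0.01 with DESeq2. As a share of the TPM on Ensembl genes, Actc1 was slightly higher in replicate 2, at 1.309% against 1.307% in replicate 1. The posterior mean share of Actg2-202 was 45.7%, against 51.4% as deposited. The marker sums without Ckm and without Des were chosen after seeing the data. No paired analysis was possible because both libraries belong to a single group.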
